A study of Mus musculus with 73 samples.

Results

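The genes described here are 10 lipid absorption and apolipoprotein genes of the mouse jejunum, named as a list (*Cd36*, *Fabp1*, *Fabp2*, *Npc1l1*, *Dgat1*, *Mttp*, *Apob*, *Apoa1*, *Apoa4* and *Apoc3*) and not chosen by a measured threshold. They are 10 of the 17399 genes of the epithelial count table, of the 21058 genes of the single-cell table and of the 20882 genes of the stroma table, and each table held all of them. The study asked what signals the *Lgr5*+ villus tip telocytes (VTTs), stromal cells beneath the tip of the villus, send to the epithelium. To ablate them, 4-month-old Lgr5(GFP-ires-DTR/+) mice, in which *Lgr5*+ cells carry the diphtheria toxin (DT) receptor, received DT or saline, and jejunal epithelium was collected 48 h later from 4 mice per group. Single jejunal cells were sorted into plates from 8 C57BL/6 mice aged 3 months. Stroma of 4 zones was laser-capture microdissected (LCM) in 29 sections from 5 mice of the same strain and age.

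Mice of both groups of the ablation experiment carried the DT receptor allele. The allele also marks the *Lgr5*+ stem cells of the crypt, so DT ablated cells at both ends of the crypt-villus axis, and the effect of losing one or the other cannot be told apart in these samples. *Lgr5* itself had 42.8, 69.5, 11.2 and 24.2 UMIs per 1000000 in control samples 1 to 4 and 47.2, 32.4, 6.37 and 13.2 in DT samples 1 to 4. The stem cells of the crypt belong to the epithelium and the telocytes do not, so *Lgr5* in this tissue does not measure the telocytes. A bulk sample cannot tell fewer cells of a type from less RNA per cell, and this holds for every bulk value below.

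Dietary fat is absorbed by enterocytes. Fatty acids are taken up, bound by small cytosolic proteins, built back into triglyceride in the endoplasmic reticulum and loaded onto apolipoprotein B to form chylomicrons, which leave the cell towards the lymph. Cholesterol enters through a separate transporter and leaves in the same particles. Among the 10 genes, *Cd36* encodes a fatty acid translocase of the cell surface, *Npc1l1* the cholesterol transporter of the brush border, *Fabp1* and *Fabp2* the liver-type and intestinal-type fatty acid binding proteins, and *Dgat1* an enzyme of the last step of triglyceride synthesis. *Mttp* encodes the large subunit of the microsomal triglyceride transfer protein, which lipidates the *Apob* product, the structural protein of chylomicrons. *Apoa1*, *Apoa4* and *Apoc3* encode smaller apolipoproteins of these particles, of which the *Apoc3* product inhibits lipoprotein lipase.

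On GRCm38, *Apoa1* (chr9:46228580-46230466), *Apoc3* (chr9:46232933-46235636) and *Apoa4* (chr9:46240696-46243459) lie in a cluster of 3 genes spanning 14.88 kb, with *Apoc3* on the minus strand. *Apob* lies at chr12:7977648-8016835, *Mttp* at chr3:138089854-138144968, *Fabp1* at chr6:71199827-71205023 and *Fabp2* at chr3:122895072-122899506. *Dgat1* lies at chr15:76502015-76511953, *Cd36* at chr5:17781690-17888801 and *Npc1l1* at chr11:6211013-6230143. In the GENCODE annotation *Apoa4*, *Mttp* and *Fabp2* overlap genes on the opposite strand. The methods state strand settings for the single-cell counts and for the LCM values. None is given in the sources used here for the epithelial samples of the ablation experiment, so there part of the reads of these 3 genes could come from the partner.

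Because several of these genes moved together between the cells of the villus compared below, the promoter sequence of 6 of them is shown, as the bases just before the annotated start (RefSeq, GRCm38.p6, 5′ to 3′ on the strand of the gene). RefSeq promoter entries matched 8 of the 10 genes, and in 6 of these at least 100 bases lay before both the RefSeq and the GENCODE start. Capitals mark matches on either strand to CAAAGNNCA, a core of the element bound by the nuclear receptor HNF4A, or to TATAAA.

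*Apoa1* (chr9:46228380-46228579, plus strand): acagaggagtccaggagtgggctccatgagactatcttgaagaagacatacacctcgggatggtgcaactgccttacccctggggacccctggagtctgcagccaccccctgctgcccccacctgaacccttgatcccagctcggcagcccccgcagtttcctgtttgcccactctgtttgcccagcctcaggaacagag

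*Apoa4* (chr9:46240594-46240695, plus strand): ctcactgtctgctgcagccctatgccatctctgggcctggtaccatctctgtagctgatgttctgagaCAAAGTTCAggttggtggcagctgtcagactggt

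*Apob* (chr12:7977448-7977647, plus strand): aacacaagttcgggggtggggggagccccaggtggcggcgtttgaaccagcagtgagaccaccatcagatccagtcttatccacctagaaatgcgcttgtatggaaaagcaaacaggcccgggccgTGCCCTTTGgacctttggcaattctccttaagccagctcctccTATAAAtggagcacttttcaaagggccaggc

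*Fabp1* (chr6:71199629-71199826, plus strand): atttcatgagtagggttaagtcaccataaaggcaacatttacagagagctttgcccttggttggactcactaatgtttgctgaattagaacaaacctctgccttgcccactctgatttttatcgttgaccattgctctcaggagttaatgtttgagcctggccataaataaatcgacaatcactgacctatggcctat

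*Fabp2* (chr3:122894872-122895071, plus strand): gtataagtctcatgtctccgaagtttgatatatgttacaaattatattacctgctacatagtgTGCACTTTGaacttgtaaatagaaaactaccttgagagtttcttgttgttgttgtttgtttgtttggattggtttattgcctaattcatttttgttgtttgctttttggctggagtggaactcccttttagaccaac

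*Npc1l1* (chr11:6230246-6230445, minus strand): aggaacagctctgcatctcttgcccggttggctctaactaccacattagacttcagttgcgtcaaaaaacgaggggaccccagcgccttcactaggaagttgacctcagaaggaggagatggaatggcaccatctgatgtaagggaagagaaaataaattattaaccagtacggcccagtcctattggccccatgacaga

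CAAAGNNCA matched in *Apoa4*, *Apob* and *Fabp2*, 3 of these 6 windows, and in 4.36% of the 32851 windows of 200 bases before all RefSeq promoters of the table. The window of *Apoa4* is 102 bases and that of *Fabp1* 198 bases long. TATAAA matched in *Apob* alone and in 9.96% of all windows. AGATAA, a form of the element bound by GATA factors, matched in 0 of the 6 and in 7.8% of all windows. *Apoa4* and *Apob*, which had the largest differences between cells below, and *Fabp2*, which did not pass the test there, all held the first motif. A match of letters is a description and not a bound site.

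The epithelial samples of the ablation experiment held between 748458 and 4210158 UMIs, and these 10 genes together made up 3.50% to 5.51% of them. The study processed replicates 1 and 2 in batch a and replicates 3 and 4 in batch b, each batch with both groups. Levels in these samples are given as CPM, counts of UMIs per 1000000 after TMM scaling, and DT was compared with control by edgeR's quasi-likelihood test with batch as a term over 8986 genes, with Benjamini-Hochberg adjustment over all of them. A gene was called at an adjusted p under 0.05.

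None of the 10 genes was called after VTT ablation, by edgeR. In the same test 32 genes, 0.356% of those tested, were called, 2 higher (0.0223%) and 30 lower (0.334%). Before adjustment, 2 of the 10, *Fabp1* and *Npc1l1*, and 1551 of all genes had a p under 0.05. DESeq2 called 1 of the 10, *Fabp1* (adjusted p = 0.0292), among 143 genes, 45 higher and 98 lower. With the replicate number as a block, edgeR called 3 genes and again 0 of the 10. The median log2 fold change of the 10 genes was -0.26, beside 0.0041 over all genes tested. In 9 of the 10 genes the log2 fold change was below 0, although with library totals in place of TMM scaling *Apoa1* (0.0092) and *Cd36* (0.0013) were above, and in *Fabp1* it was above 0. Without DT replicate 4 the median of the 10 was -0.15.

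*Fabp1* had the largest difference of the 10. Its level was 11228, 6949, 7055 and 10591 CPM in control samples 1 to 4, and 19199, 15576, 21284 and 11303 in DT samples 1 to 4. Each DT sample lay above each control sample, a pattern found in 1.21% of all genes tested. The group means were 8956 ± 2272 in controls and 16840 ± 4380 after DT (SD, n = 4 each). The log2 fold change was 0.91 (95% interval 0.26 to 1.56), a 1.88-fold difference, which was not called (adjusted p = 0.222, edgeR). It was 0.93 in batch a and 0.87 in batch b, and it lay between 0.72 and 1.07 with each sample left out in turn.

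*Fabp2*, for the other fatty acid binding protein, had 12959, 7043, 8669 and 8660 CPM in control samples and 9352, 13076, 7277 and 5787 in DT samples, and the groups overlapped. Its log2 fold change was -0.12 (adjusted p = 0.851, edgeR). The gene for the surface translocase, *Cd36*, had 113, 63.9, 66.1 and 114 CPM in controls and 92.0, 78.7, 140 and 35.3 after DT. Its log2 fold change was -0.05 (adjusted p = 0.964, edgeR), with DT samples both above and below every control.

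*Npc1l1*, the cholesterol transporter gene, had 350, 320, 347 and 190 CPM in control samples and 308, 237, 99.5 and 170 in DT samples. The DT samples lay below the controls within each batch, and the groups overlapped across batches. The log2 fold change was -0.65 (95% interval -1.23 to -0.08, adjusted p = 0.248, edgeR), with -0.30 in batch a and -1.02 in batch b. *Dgat1* had 875, 777, 749 and 687 in controls and 669, 633, 527 and 592 after DT, so that each DT sample lay below each control sample. This order was found in 1.87% of all genes tested. Its means were 772 ± 78.2 and 605 ± 61.0 (SD, n = 4 each), and its log2 fold change of -0.35 (95% interval -0.78 to 0.07) was not called (adjusted p = 0.360, edgeR).

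The genes of chylomicron assembly had lower means after DT without passing the test. *Mttp* had 2188, 2748, 1080 and 932 CPM in controls and 1866, 1530, 833 and 840 after DT. *Apob* had 1920, 1895, 1051 and 736 in controls and 1795, 1254, 792 and 485 after DT. Both genes were lower in batch b than in batch a in either group, and the groups overlapped across batches. The log2 fold change was -0.40 for *Mttp* (adjusted p = 0.358, edgeR) and -0.40 for *Apob* (adjusted p = 0.412, edgeR). Within both batches *Mttp*, *Dgat1* and *Npc1l1* had every DT sample below every control, as did 8.09% of all genes tested, and *Fabp1* had every DT sample above, as did 9.69%.

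Of the smaller apolipoproteins, *Apoa1* had 14730, 11522, 11157 and 11255 CPM in controls and 12498, 14269, 11727 and 8923 after DT. The groups overlapped and its log2 fold change was -0.05 (95% interval -0.57 to 0.48). *Apoa4* had 9316, 8730, 5796 and 7900 in controls and 8466, 6588, 8197 and 4978 after DT, a log2 fold change of -0.16. *Apoc3* had 1761, 1020, 971 and 799 in controls and 919, 974, 907 and 357 after DT, a log2 fold change of -0.52 (adjusted p = 0.381, edgeR). DT sample 4 was the lowest of the 8 for all 3 genes.

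**Figure D1:**
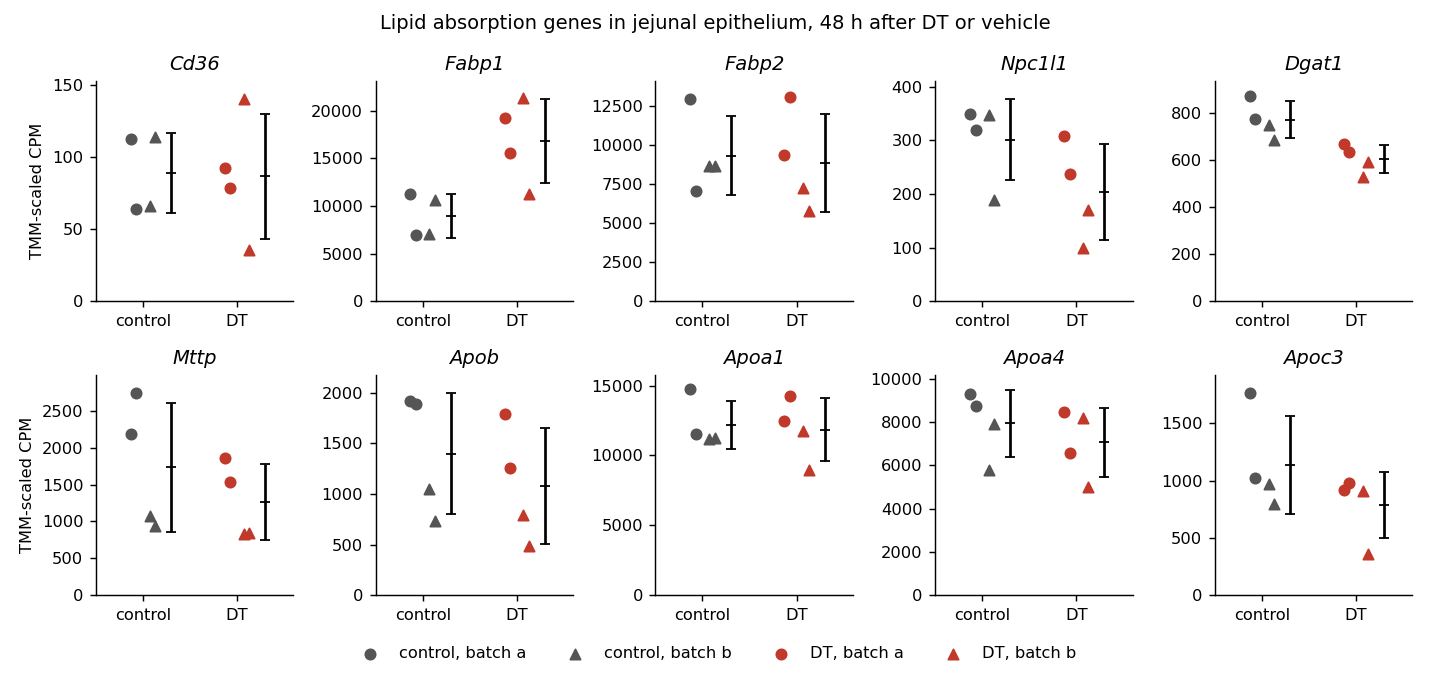
Levels of the 10 lipid absorption genes in the jejunal epithelium of each mouse, in TMM-scaled CPM on axes that start at 0, for control and DT samples. Circles are batch a, triangles are batch b, and the bar beside each group is its mean ± SD (n = 4). Each DT sample lay above each control sample for *Fabp1* and below for *Dgat1*, and the groups overlapped in the other genes.

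The effect of DT on these genes was also compared between the batches, by the interaction of treatment and batch in edgeR. None of the 10 genes and none of the 8986 tested was called (0% of genes), with 0 of the 10 and 223 of all genes at an unadjusted p under 0.05. The interaction was not fitted with another tool. The interaction of the 10 genes lay between -0.70 and 0.27 on the log2 scale.

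Markers of other epithelial states moved with DT in the same samples. The villus tip genes *Ada* (log2 fold change -2.06, adjusted p = 0.0106, edgeR) and *Nt5e* (-2.66, adjusted p = 0.0381) were called lower, and *Slc28a2* had -1.61 (adjusted p = 0.125). All 6 tuft cell markers tested were called lower, with a summed level of 60.1 to 124 CPM in controls and 8.23 to 16.0 after DT. Of 7 Paneth cell markers, 2 were called lower, and their sum was 5237 to 16850 in controls and 925 to 2588 after DT. A list of 8 enterocyte markers that are no lipid genes had 0 called and 7 below 0, with a sum of 7428 to 14319 in controls and 5840 to 11701 after DT. The part of these shifts in the values of the lipid genes was not tested.

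The single cells allowed the same 10 genes to be compared along the villus, within mice that had received no DT. Of 12346 wells on 35 plates, 2347 held 400 to 8000 UMIs and at least 250 genes, and 1215 of these had a UMI of *Epcam*, a membrane protein of epithelial cells. The cells were split by the summed UMIs of *Ada*, *Nt5e* and *Slc28a2*, purine metabolism genes known to be expressed by enterocytes at the villus tip. There were 242 cells with 3 or more of these UMIs (high cells), 881 with 0 (zero cells) and 92 between. Their median depth was 1711.5 UMIs in high cells and 2136 in zero cells. Wells are not replicates, so UMIs were summed per mouse and class, and the 4 mice with at least 5 cells in both classes (A to D, with 7, 132, 74 and 22 high cells and 36, 286, 184 and 42 zero cells) were compared by edgeR with mouse as a block. The 3 splitting genes and *Epcam* were left out of the sums.

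Of the sorted cells, 408 epithelial cells, 121 of them high cells, came from gates set to catch pairs of an epithelial and a stromal cell, and 45 high cells came from a gate for CD45. The pair gate labelled with *Nt5e*, a splitting gene, and *Pdgfra* gave 19 high and 66 zero cells. The CD45 gate gave 5 zero cells, and its high and zero cells were from mouse C, where gate and class cannot be fully told apart. Well barcodes were reused between plates, with 380 distinct barcodes, so cells were told apart by plate and barcode. Other markers not used in the split moved with it. A list of villus top enterocyte genes without the 3 splitting genes had 26.7 to 31.9 UMIs per 10000 in the zero cells of the 4 mice and 70.1 to 98.2 in the high cells, and a list of villus bottom genes had 87.7 to 322 and 44.5 to 56.8. *Klf4* (log2 fold change 2.22) and *Fos* (1.69) of the first list were called higher, and *Reg3b* (-1.58) and *Nlrp6* (-3.04) of the second were called lower. Goblet cell markers ranged from 0.326 to 22.7 in zero cells and from 0.862 to 66.2 in high cells. Their part in the results was not tested.

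Of the 10 genes, 9 passed the filter on low counts, which *Cd36* failed, and 7 of the 9 were called. Among all 1977 genes tested, 39% were called, 19.3% higher and 19.8% lower in high cells. The apolipoprotein genes *Apoa4*, *Apob*, *Apoc3* and *Apoa1*, the cholesterol transporter gene *Npc1l1* and, at the edge of the threshold, *Mttp* were higher in high cells. *Fabp1* was lower, and *Fabp2* and *Dgat1* were not called. Together the 10 genes made up 3.81% to 5.46% of the UMIs of the zero cells of a mouse and 8.04% to 9.06% of those of the high cells.

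*Apoa4* differed most. Zero cells of mice A to D held 118, 56.7, 56.3 and 110 UMIs of *Apoa4* per 10000, and high cells held 380, 342, 441 and 507. The means were 85.2 ± 33.3 and 417 ± 72.3 (SD, n = 4 mice). The log2 fold change was 2.76 (95% interval 2.03 to 3.49, adjusted p = 2.75e-06, edgeR), a 6.77-fold difference after TMM scaling. UMIs per 10000 are shares of the UMI total without TMM scaling, here and below, so their ratios differ from the folds of the fit.

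*Apob*, the structural protein gene of chylomicrons, had a fold change close to that of *Apoa4*. It had 7.51, 3.78, 4.44 and 7.62 UMIs per 10000 in zero cells and 34.1, 22.8, 23.7 and 29.9 in high cells. Its log2 fold change was 2.70 (95% interval 2.18 to 3.22, adjusted p = 1.34e-08, edgeR), 6.50-fold. A UMI of *Apob* was found in 46.9% of zero cells and 87.6% of high cells. For shares at equal depth, cells were thinned to 1000 UMIs, which left out 147 zero and 39 high cells of lower depth, and the *Epcam* criterion and the split were applied anew to the thinned counts. The shares were then 32.9% of 554 zero cells and 83.7% of 147 high cells. *Apoc3*, between *Apoa1* and *Apoa4* on the chromosome, had 16.4, 16.7, 15.8 and 14.5 in zero cells and 41.0, 44.0, 38.9 and 39.2 in high cells. Its means were 15.8 ± 0.963 and 40.8 ± 2.32 (SD, n = 4 mice), with a log2 fold change of 1.76 (95% interval 1.26 to 2.27, adjusted p = 5.84e-06, edgeR).

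*Apoa1* had the smallest fold of the 3 genes of the cluster. Zero cells held 150, 114, 124 and 119 UMIs per 10000 and high cells 208, 266, 236 and 232. The log2 fold change was 1.29 (95% interval 0.66 to 1.93, adjusted p = 0.00167, edgeR). *Npc1l1* had 9.50, 4.10, 4.44 and 6.12 in zero cells and 16.0, 7.76, 9.98 and 9.31 in high cells, higher within every mouse although the classes overlapped between mice. Its log2 fold change was 1.27 (95% interval 0.76 to 1.79, adjusted p = 0.000243, edgeR). The lowest log2 fold change over the alternatives run was 2.30 for *Apoa4*, 2.23 for *Apob*, 1.29 for *Apoc3*, 0.83 for *Apoa1* and 0.80 for *Npc1l1*.

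*Apoa1*, *Apoa4*, *Apob*, *Apoc3* and *Npc1l1* were higher in the high cells of all 4 mice in UMIs per 10000, as were 14.2% of the genes tested. They were also higher on each of the 8 plates, from 3 mice, that held at least 5 cells of each class. Plates of the same mouse are not replicates. The share of all genes with such plate counts was not computed, here and below. *Mttp* was less clear, with 15.0, 6.95, 8.61 and 9.62 in zero cells and 24.1, 6.78, 9.72 and 10.2 in high cells. It was higher in 3 of 4 mice and on 4 of 8 plates. Its log2 fold change of 0.62 (adjusted p = 0.0343, edgeR) was 0.15 with library totals in place of TMM scaling (adjusted p = 0.629) and was not called by DESeq2 (adjusted p = 0.0932).

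*Fabp1* went the other way. It had 90.5, 51.7, 67.1 and 59.4 UMIs per 10000 in the zero cells of mice A to D and 67.9, 16.9, 16.5 and 21.6 in the high cells. It was lower in the high cells of every mouse, as were 35.3% of the genes tested. Mouse A, with 7 high cells, kept the highest level in both classes. The log2 fold change was -0.99 (95% interval -1.55 to -0.43, adjusted p = 0.00499, edgeR). The call was lost without mouse B (adjusted p = 0.0606), without mouse C (adjusted p = 0.0944) and with no mouse block (adjusted p = 0.0695). The share of cells with a *Fabp1* UMI was 82.4% in zero and 64.5% in high cells, and after thinning 75.6% and 49.0%.

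*Fabp2* had 131, 124, 129 and 89.2 UMIs per 10000 in zero cells and 101, 91.8, 43.5 and 52.0 in high cells, lower in the high cells of every mouse and on 5 of 8 plates. With TMM scaling its log2 fold change was -0.39 (95% interval -0.98 to 0.19, adjusted p = 0.286, edgeR) and with library totals -0.86 (adjusted p = 0.0168). Library totals moved the median of all genes from 0.04 to -0.47 and the calls from 381 higher and 391 lower to 203 and 648. *Dgat1* had 8.27, 3.38, 5.03 and 8.75 in zero cells and 2.19, 6.15, 6.90 and 4.65 in high cells, with 2 mice each way. Its log2 fold change was 0.23 with TMM scaling (95% interval -0.51 to 0.97, adjusted p = 0.652, edgeR) and -0.25 with library totals, and after thinning to 1000 UMIs per cell it was 0.78 (adjusted p = 0.0304). *Fabp2* was called lower after that thinning too (-0.73, adjusted p = 0.0163). *Cd36*, which was not tested, had 0.125 to 0.204 UMIs per 10000 in zero cells and 0.262 to 0.939 in high cells, from 49 and 22 UMIs in all cells of each class.

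**Figure D2:**
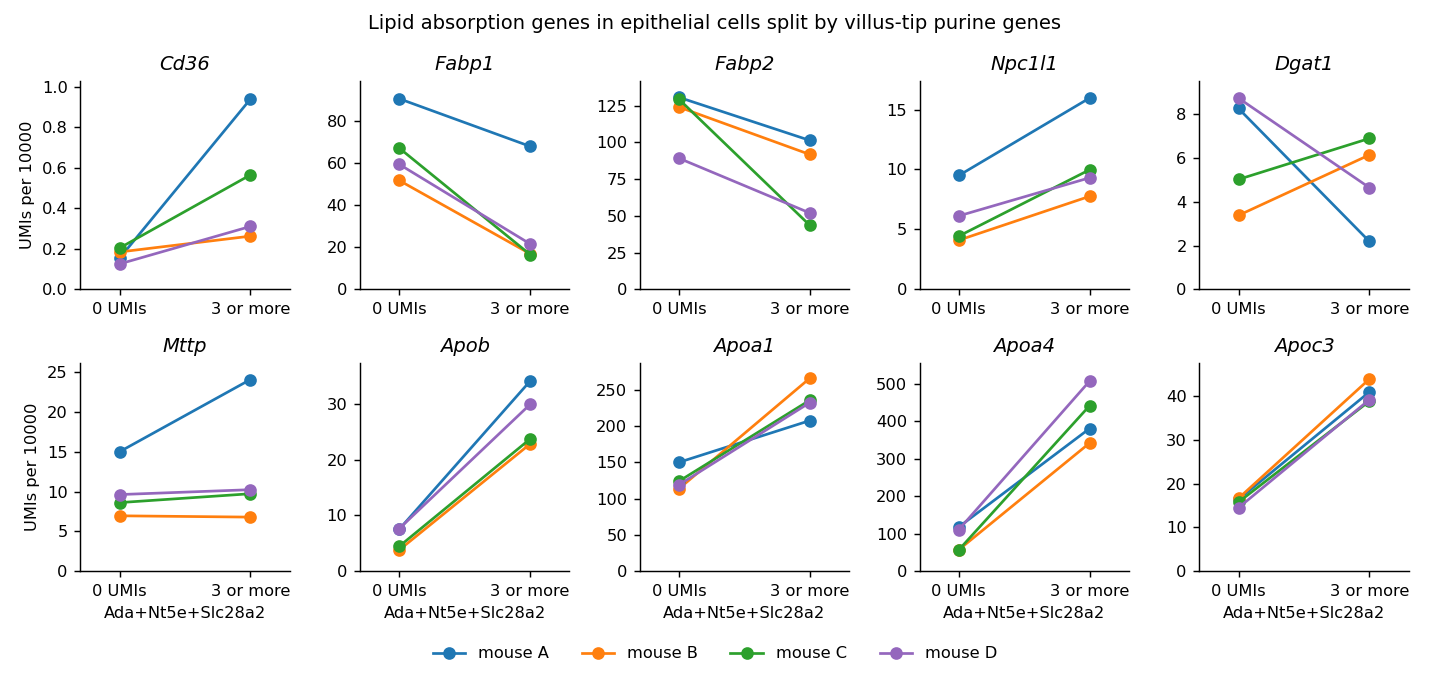
Levels of the 10 lipid absorption genes in epithelial cells of mice A to D, as UMIs per 10000 summed over the cells of a mouse, on axes that start at 0. Each line joins the cells of 1 mouse with 0 and with 3 or more UMIs of *Ada*, *Nt5e* and *Slc28a2*. The lines of the 4 apolipoprotein genes and *Npc1l1* rise in all 4 mice, those of *Fabp1* and *Fabp2* fall in all 4, and those of *Mttp* and *Dgat1* differ between mice.

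The 92 cells with 1 or 2 splitting UMIs were not tested. Over all cells of a class, *Apoa4* had 57.0 UMIs per 10000 in zero cells, 112 in these middle cells and 391 in high cells. *Apoa1* had 115, 133 and 247 in the same order, and *Fabp1* had 52.1, 56.1 and 20.1. Pooled over mice, the middle cells thus lay between the classes for *Apoa4* and *Apoa1*. Per mouse, *Apoa4* did so in B, C and D (76.8, 159 and 186 in middle cells). *Apoa1* did so in C (195) and D (148), but mouse B, with 43 middle cells, had 113 beside 114 in zero cells. In mouse H, with 6 middle cells, both genes were lower in middle than in zero cells. For *Fabp1* the pooled middle cells lay above both, with 98.0 beside 59.4 in zero cells in mouse D and 31.7 beside 67.1 in C. After thinning and a new split the pooled middle cells lay between, with 50.4, 26.0 and 11.7 in the same order.

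To set the detection of these genes against free RNA in the wells, they were counted in cells marked by immune or mesenchymal genes. In 167 immune-marked cells (median 672 UMIs) each of the 10 genes was detected in 0% to 1.80% of cells, and *Apoc3*, *Fabp1* and *Cd36* in 0 of 167, which allows a share of up to 1.80% of such cells with a UMI at this depth and does not limit the share that hold the RNA. In 310 mesenchyme-marked cells (median 1019.5 UMIs) the share reached 8.71%, for *Apoa1*, at 1.44 UMIs per 10000. In 8 endothelium-marked cells (median 890 UMIs) *Apoa4* and *Fabp2* stood at 4.25 UMIs per 10000, *Apoa1* at 3.19 and *Cd36* at 2.13, the last from 2 UMIs. Over all zero cells *Apoa1* stood at 115 and *Cd36* at 0.214, so *Cd36* alone was higher in the endothelium-marked cells than in these. The shares of zero and high cells with a UMI of *Apob* or *Fabp1* given above were far above those in immune-marked and mesenchyme-marked cells. These were 0.599% and 1.61% for *Apob* and 0% and 3.55% for *Fabp1*. Of the 8 endothelium-marked cells, 50% had a UMI of *Fabp2* and 25% each of *Apoa1*, *Apoa4* and *Cd36*. None had *Apob* or *Fabp1*, which allows a share of up to 37.5%. *Cd36* was found in 4.31% of zero and 6.61% of high cells. Such limits cover counting error only.

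The 2 comparisons used different mice and can be set side by side. They are not independent, because the cells were split by genes that were themselves lower after DT, *Ada* and *Nt5e* called and *Slc28a2* uncalled. The 6 genes called higher in high cells all had a log2 fold change below 0 after DT (*Apoa1* 0.0092 with library totals), and *Fabp1*, called lower, had one above 0. This opposition was shared by most genes. Of the 361 genes called higher in high cells and tested in both, 313 (86.7%) were below 0 after DT. Of the 277 called lower, 36 (13.0%) were below 0, as were 52.6% of all 1737 genes tested in both. The DT values of the lipid genes were uncalled by edgeR. *Apoa4* had -0.16 after DT beside 2.76 between cells, *Apob* -0.40 beside 2.70, *Apoc3* -0.52 beside 1.76 and *Apoa1* -0.05 beside 1.29. *Npc1l1* had -0.65 beside 1.27, *Mttp* -0.40 beside 0.62 and *Fabp1* 0.91 beside -0.99. The uncalled *Dgat1* had -0.35 beside 0.23 and *Fabp2* -0.12 beside -0.39. The DT values are of whole epithelium and the others compare classes of cells, so their sizes are not on a like scale.

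**Figure D3:**
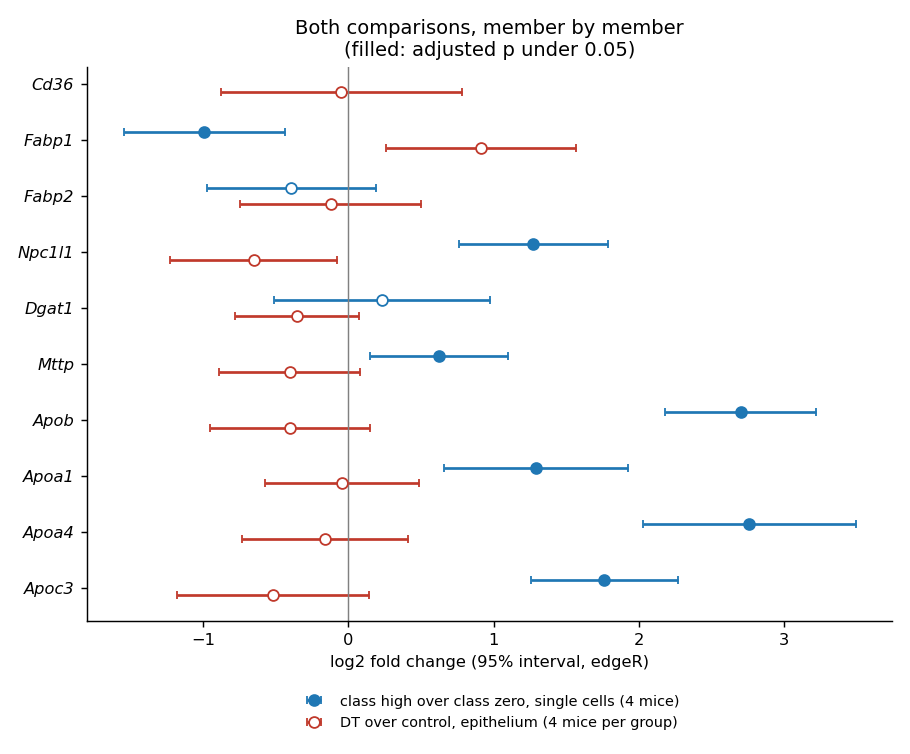
Log2 fold change with its 95% interval (edgeR) for each lipid absorption gene, in high over zero epithelial cells (blue, 4 mice) and in DT over control epithelium (red, 4 mice per group), with filled points for an adjusted p under 0.05. *Cd36* has no single-cell value because it failed the filter. The 7 filled points are all from the single cells.

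Other lipid genes were taken from a list of 60. After DT, 53 were tested and 0 were called by edgeR, with 15 at an unadjusted p under 0.05 and a median log2 fold change of -0.01, and DESeq2 called 7. Of all 8986 genes tested, 1551 had an unadjusted p under 0.05 and 50.5% were above 0 by edgeR, and DESeq2 called 143. The genes of fatty acid oxidation and ketone synthesis had a median of 0.53, with 11 of 12 above 0 and 6 at an unadjusted p under 0.05. *Cpt1a*, which encodes the carnitine palmitoyltransferase that admits fatty acids to mitochondria, had 47.9, 38.6, 71.1 and 87.9 CPM in controls and 93.7, 86.1, 124 and 127 after DT. The DT samples of *Cpt1a* lay above the controls within each batch. The difference of 0.82 on the log2 scale (adjusted p = 0.0689, edgeR) was short of a call, and the gene was called by DESeq2. *Cpt1a* was named after its values were seen. The medians of the other 5 lists lay between -0.19, for sterol transport and esterification, and 0.02, for chylomicron assembly and other apolipoproteins.

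Between high and zero cells, 32 of the 60 were tested, 7 were called higher and 1 lower, beside 19.3% and 19.8% of all genes, with a median of 0.25. The share called higher was thus near that of all genes and the share called lower was below it. Of the called genes, *Creb3l3* (log2 fold change 2.16) and *Hnf4a* (1.08) encode transcription factors of enterocyte lipid genes. *Dgat2* (1.61) encodes the other enzyme of the last step of triglyceride synthesis, *Apoc2* (1.43) the apolipoprotein that activates lipoprotein lipase, and *Slc27a4* (1.35) a fatty acid transport protein. *Plin3* (1.10) encodes a lipid droplet coat protein, *Surf4* (0.99) a cargo receptor of the endoplasmic reticulum, and *Dbi* (-0.63), the gene called lower, the acyl-CoA binding protein. *Dgat2* was thus called where *Dgat1* was not, and the difference between the 2 genes was not tested.

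**Figure D4:**
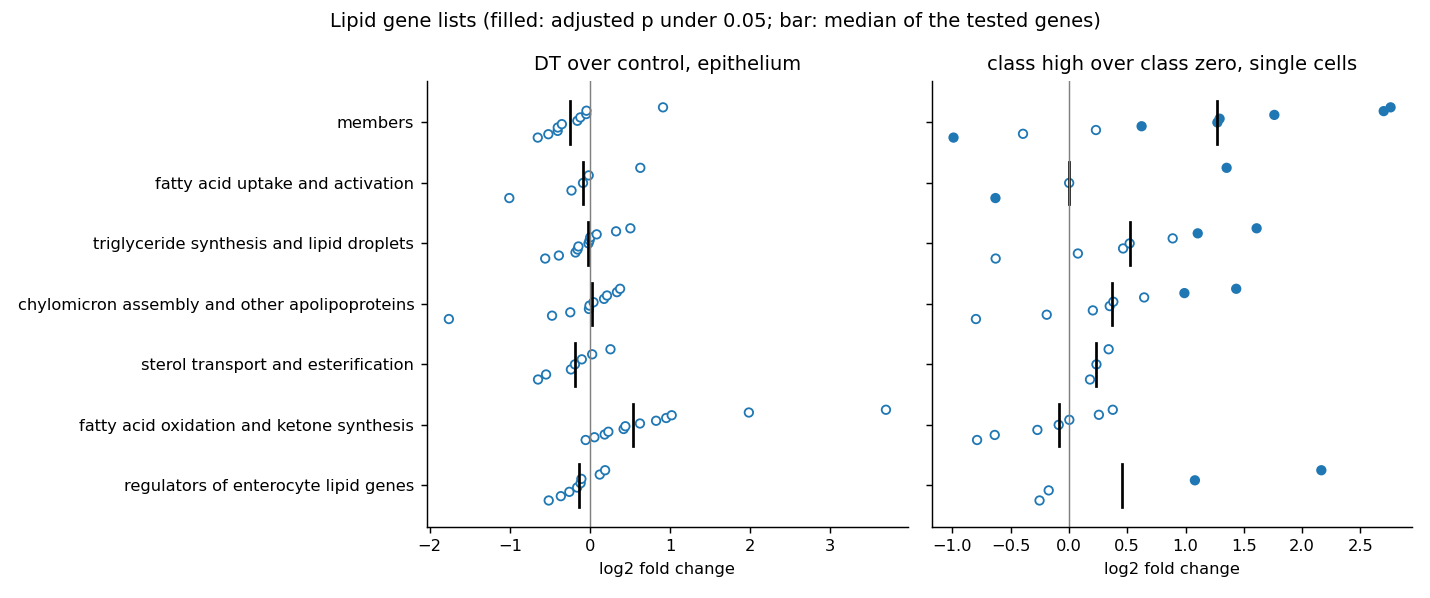
Log2 fold change of each tested gene of the lipid lists, with the 10 lipid absorption genes in the top row, after DT (left) and in high over zero cells (right). Filled points had an adjusted p under 0.05 and the black bar is the median of the row. After DT no point is filled, and the oxidation and ketone row has its median at 0.53.

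Across the 8 epithelial samples, each centred on its batch, the mean profile of the 10 genes was lowest in DT sample 4 and highest in control sample 1. *Apoc3* followed this mean most closely (Pearson r = 0.966 over 8 samples), then *Apob* (0.828), *Cd36* (0.760) and *Apoa1* (0.757), and *Fabp1* did not (-0.119). *Fabp1* ran against *Mttp* (r = -0.80), *Dgat1* (-0.80) and *Npc1l1* (-0.76). Of the 1937 other genes with a mean of at least 100 CPM, those most like the mean profile were *Naprt* (r = 0.980), *Aoc1* (0.979), *Tmbim6* (0.969), *Klf3* (0.959) and *Reg4* (0.940). These are descriptions over samples that share their groups and libraries, and each gene's r with the mean includes the gene itself.

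Stroma was dissected for LCM, and it held RNA of enterocyte markers. How much of each of the 10 genes was carried along from the epithelium was not tested. The 10 genes held 0.0465% to 9.22% of a section's TPM (transcripts per 1000000), and 8 enterocyte markers that are no lipid genes summed to 383 to 5185 TPM in a mouse and zone. *Epcam* is listed at 0 in every zone. *Cd36* did not follow that sum in the crypt, where mouse 2 had the most *Cd36* (35.9 TPM) and the lowest sum (539 TPM). TPM keeps no depth, so the precision of a section is unknown. Zones were compared with limma on log2(TPM + 1), a scale that understates changes of low genes, after averaging the sections of a mouse.

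Between villus top and villus bottom stroma, limma called 0 of the 10 genes and 0 of 12000 (0% of genes), with 1 of the 10 and 953 of all genes at an unadjusted p under 0.05. No other tool was run on these values. The 1 gene was *Fabp1*. It had 14613, 4950, 15022, 12978 and 7633 TPM at the villus bottom of mice 1 to 5 and 7565, 2509, 2480, 1530 and 6707 at the top, lower at the top in 5 of 5 mice. The share of all genes with such counts of mice was not computed, here and below. Its log2 fold change was -1.56 (95% interval -2.54 to -0.58, adjusted p = 0.439, limma).

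*Apob* had 24.2, 20.9, 6.85, 19.2 and 5.22 TPM at the villus bottom and 77.1, 31.0, 57.4, 11.5 and 10.1 at the top, higher at the top in 4 of 5 mice, with a log2 fold change of 1.04 (95% interval -0.78 to 2.87). *Apoa4* was higher at the top in 4 of 5 mice too (0.51, 95% interval -1.06 to 2.08). *Apoa1*, with 17406, 580, 991, 265 and 1099 TPM at the top, had 1 mouse far above the others and a log2 fold change of 0.13 (95% interval -1.13 to 1.40). The 2 villus top sections averaged for that mouse differed, with 9.22% and 0.694% of TPM in the 10 genes together. *Fabp2* had -0.97 (95% interval -2.06 to 0.11). *Cd36*, *Npc1l1*, *Dgat1*, *Mttp* and *Apoc3* lay between -0.36 and 0.24. None of these differences exceeded the spread between mice.

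**Figure D5:**
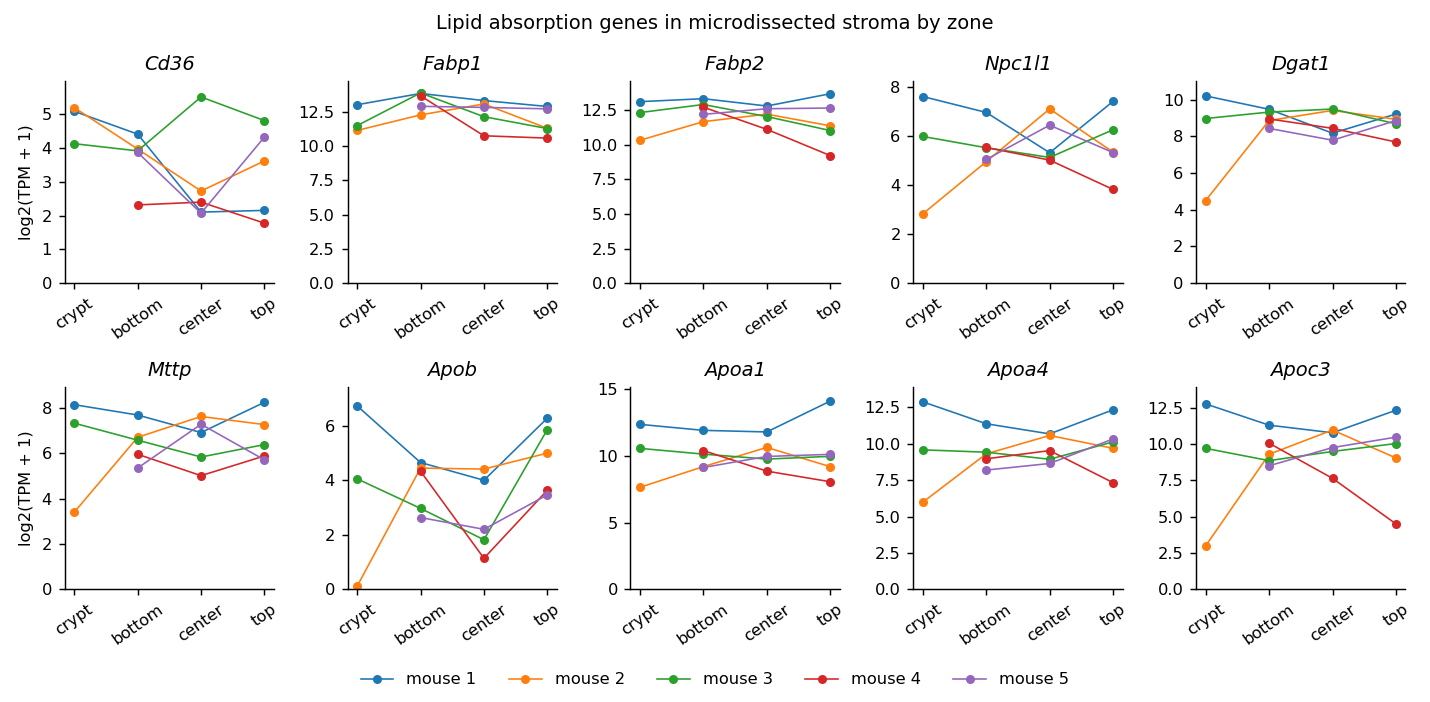
Levels of the 10 lipid absorption genes in microdissected stroma, as log2(TPM + 1), in the crypt (3 mice) and the bottom, center and top of the villus (5 mice). Each line is 1 mouse, with its sections averaged. *Fabp1* is lower at the top than at the bottom in 5 of 5 mice, and the other genes cross between mice. The share of all genes with such an order was not computed.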

How the data were processed

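Epithelium of 8 mice, sorted single cells and LCM stroma sections were grouped by their labels, and batches of the epithelium were taken from the study's count table. For epithelium and single cells the authors deposited raw UMI counts per gene, made with zUMIs (genome GRCm38). For the stroma the authors deposited TPM values from kallisto and sleuth. The labels name the mice, and the p-values measure the spread between them.

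Counts of epithelium above 1e-05 of the UMIs in at least 2 samples, and sums of single cells, were tested with edgeR 4.0.16 (TMM, robust quasi-likelihood), beside DESeq2 1.42.0. TPM values were compared with limma 3.58.1 as log2(TPM + 1), pseudocount 1, for genes above 5 TPM in a zone, with mouse as a block. Each test was tested on simulated data. R was 4.3.3. Doublets were not called, because several gates collected pairs of cells. Among the single cells, 352 wells of a plate matching no sample title were left out, and 1 labelled plate is not analysed here. Where counting could split reads between overlapping genes is stated beside the genes.

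Samples of the same replicate number deviated together (correlations 0.610, 0.415, 0.658 and 0.585), so a replicate block was run beside the reported fit, which has batch as its term. The pairing follows the batches, since the correlations were -0.164 and -0.0594 within them. Alternatives were other scalings and filters, the batch term, a replicate block, other cuts of cells and leaving out each sample.

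The 10 genes and the other lists were chosen with earlier results of these data known. Named are the 10 genes, called genes among the other lipid genes (at most 8 a comparison), the 5 genes most like the mean profile, marker genes that moved and *Lgr5*. Genes outside this rule are said to be chosen after their values were seen. A single list member goes unnamed but is included in the counts and medians.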

Additional observations from a re-analysis of the deposited data

Results flagged for a closer look

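A sample far from the rest of its group, by Dixon's test at the 95% level, was found in 11 of 70 groups of 4 or 5 values of the 10 lipid genes. Chance alone marks about 1 in 20 such groups.

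In the epithelium, *Apoa1* was high in control replicate 1, with 14730 CPM beside 11157 to 11522 in the other controls (gap over range 0.898). *Apoc3* was low in DT replicate 4, with 357 beside 907 to 974 (0.891). In the single cells, *Fabp1* was high in the high cells of mouse A, with 67.9 UMIs per 10000 from 7 cells beside 16.5 to 21.6 (0.902), and *Fabp2* was low in the zero cells of mouse D, with 89.2 beside 124 to 131 (0.840).

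The other 7 values are from the LCM stroma, and 6 of them are from mouse 1. There *Apoa1* stood apart at the villus bottom (3817 TPM, 0.760) and at the villus top (17406 TPM beside 265 to 1099, 0.951), and *Apoa4* at the bottom (2665 TPM, 0.834) and the top (5178 TPM, 0.775). *Apoc3* stood apart at the top of mouse 1 (5142 TPM, 0.726) and *Npc1l1* at the bottom (123 TPM, 0.836). *Cd36* did so at the villus center of mouse 3 (44.9 TPM, 0.942). Mouse 1 also had the highest enterocyte marker sum at the crypt, 5185 TPM. Its 2 villus top sections had sums of 4959 and 550 TPM, so its values there average unlike sections. The part of these sums in its high values was not tested.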

How the results depend on the processing

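Over the alternatives run, the log2 fold changes of the 10 lipid genes kept direction and side of the threshold in 147 of 160 values after DT, 112 of 135 between cells and 91 of 100 in the stroma. After DT, 0 of the 10 were called by edgeR, 1 by DESeq2 and 1 with no filter on low counts. All called genes numbered 32, and 143 by DESeq2, 635 with no filter, 1 with no batch term, 3 with the replicate block, 0 in batch a alone, 5 in batch b alone and 3 to 41 with 1 sample left out. The fewest were without control replicate 1, and the replicate block changed no call among the 10 genes. Other lipid genes called numbered 7 by DESeq2, 7 with no filter and 0 to 1 with 1 sample left out. For the interaction with batch, all called genes numbered 43 with no filter and 0 to 3 with 1 sample left out.

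Between high and zero cells 772 genes were called, 268 after thinning, 295 without doublet gates and 376 to 1107 with 1 mouse left out, where mice B (376) and C (421) lowered it most. Other lipid genes called numbered 8, and 5 without doublet gates. Of the 10 genes, 5 to 8 were called over the alternatives. *Mttp* lost its call in 11 of them, for example without mouse A (adjusted p = 0.157, edgeR), and *Fabp1* without mouse B or C or without the block. Leaving out the CD45 gate, chosen after seeing the data, left 7 called. In the stroma the villus top against bottom count was 0, and 0 to 4 with 1 mouse left out.

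Directions turned only in uncalled values. After DT, *Apoa1* had 0.0092 with library totals, 0.030 in batch a alone and -0.13 to 0.046 with 1 sample left out, *Fabp2* had 0.17 in batch a alone and -0.33 to 0.0049, and *Cd36* had 0.0013 with library totals and -0.56 to 0.25. Between cells *Dgat1* had -0.25 with library totals, -0.038 with no filter, -0.26 without doublet gates and -0.22 to 0.64 with 1 mouse left out. In the stroma *Dgat1* had 0.061 scaled to the enterocyte list, and with 1 mouse left out *Apoa1* had -0.38 to 0.75, *Apoc3* -0.90 to 0.98, *Cd36* -0.67 to 0.12 and *Npc1l1* -0.15 to 0.46. The cause of each change was not tested. Depth limited *Cd36* most, with 49 UMIs in the zero and 22 in the high cells.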
